A study of Arabidopsis thaliana with 12 samples.

Results

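The interaction of warmth and mannitol was measured in Arabidopsis thaliana seedlings as the difference between 27°C and 21°C in the presence of mannitol, less the same difference in its absence. It was taken over all 12 libraries of the series, 3 in each of 4 groups, and over every gene with at least 1 TPM (a length-normalised transcript level with the same sum in every library) in at least 3 libraries, 20005 of the 27655 genes in the table. All seedlings were of the wild type Columbia and had grown for 7 days at 21°C in cycles of 8 h of light and 16 h of dark. From 1 h after lights on, one group was held at 27°C with mannitol, one at 21°C with mannitol, one at 27°C without it and one at 21°C without it, and all were harvested 13 h after lights on. The sources used here do not give the mannitol dose, and the material is whole seedlings. The labels number the replicates 1 to 3 without saying whether they were grown or harvested apart, so each p-value measures the spread between these 12 samples, which may be technical. With 1 harvest time, a changed level and a shifted daily rhythm cannot be told apart. In whole seedlings, fewer cells of a type and less RNA per cell cannot be told apart either.

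Warm air makes young Arabidopsis plants stretch, a response called thermomorphogenesis. The transcription factor PIF4 drives it by switching on auxin synthesis and cell wall genes in stems and petioles, and the evening complex of the proteins ELF3, ELF4 and LUX holds PIF4 down at night and loses grip in warmth. Mannitol is a sugar alcohol that draws water out of reach of the roots, and it sets off osmotic and abscisic acid responses. An interaction asks whether the combined treatment gives what the single treatments would give together: on a log2 scale, a gene at 0 changes by the same factor with warmth whether mannitol is there or not.

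Depth, as reads recovered from the steps in TPM, was 13478365 to 14573463 per library. Values below are listed for replicates 1 to 3 of each group, and the error after ± is the standard error of the limma fit for a log2 value and the SD of 3 libraries for a mean TPM. The 14 root, 4 guard cell, 3 phloem and 4 green leaf markers held none at 0 in every library. The 50 most abundant genes held 13.7% to 14% of all TPM at 27°C with mannitol, 16.0% to 16.2% at 21°C with mannitol, 17.5% to 18.1% at 27°C and 18.8% to 19.5% at 21°C, and TPM values share a fixed sum. Replicates 1 and 2 of the 27°C group and replicate 1 of the 21°C group lay farthest from their group means over the tested genes, at 0.194, 0.205 and 0.181 (root mean square, log2). The other 9 libraries lay between 0.139 and 0.174.

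The interaction was called for 1024 genes, 5.12% of those tested (limma, Benjamini-Hochberg adjusted p below 0.05). It was higher, meaning a more positive warm response with mannitol, for 486 genes (2.43%) and lower for 538 (2.69%). A size of at least 1 on the log2 scale was reached by 111 of the higher genes (0.555% of those tested) and 195 of the lower genes (0.975%). For comparison, warmth with mannitol was called for 54% of genes, warmth without it for 44.8%, mannitol at 27°C for 34.5% and mannitol at 21°C for 20%. The median interaction over all tested genes was 0.07. Dividing each library by its median-of-ratios size factor moved that median to -0.01 and gave 314 higher and 740 lower genes, so the split between directions depends on the scaling. On the linear TPM scale, where additive means adding TPM and not factors, 932 genes were higher and 559 lower. Leaving out replicate 1 at 27°C gave 1013 higher and 755 lower genes, leaving out replicate 3 at 21°C with mannitol gave 300 and 359, and leaving out replicate 2 or replicate 3 at 27°C with mannitol gave 295 and 375 or 299 and 373.

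Each direction held several shapes. Of the 538 genes called lower, 158 rose with warmth only where there was no mannitol by the calls, 140 fell with warmth in the presence of mannitol without a called change in its absence, 97 rose in both settings and 70 fell in both, each to a different degree. The remaining 73 rose with warmth alone and fell with warmth in the presence of mannitol. Of the 486 genes called higher, 189 rose with warmth in the presence of mannitol without a called change in its absence, 123 rose in both settings and 91 fell with warmth only in the absence of mannitol. A further 24 fell in both settings, and 59 fell with warmth in the absence of mannitol and rose with warmth in its presence. The group with the highest mean was 27°C with mannitol for 361 of the 486 higher genes. Among the 538 lower genes it was 27°C for 254 and 21°C with mannitol for 202.

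**Figure D1:**
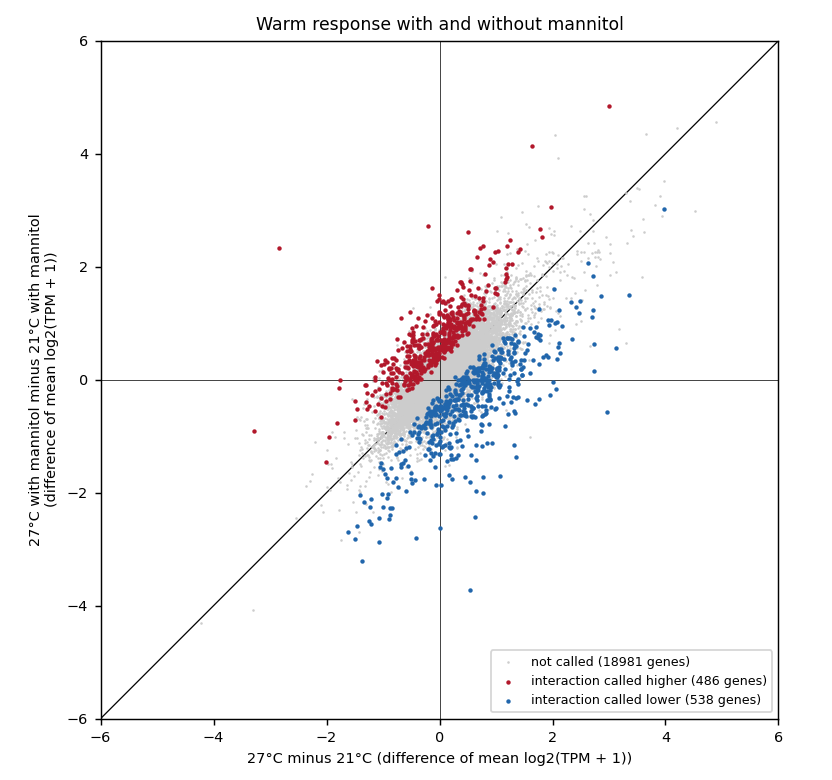
Warm response of each tested gene, as the difference of mean log2(TPM + 1) between 27°C and 21°C, with mannitol (vertical axis) against without (horizontal axis). The 486 genes called higher lie above the diagonal of equal responses and the 538 called lower lie below it; 1 gene lies outside the axes.

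In a list of 17 tested genes of warm growth and PIF targets, 8 were called lower and 0 higher, 47.1% called against 5.12% of all tested genes. The median interaction was -0.66 against 0.07 over all genes. The interaction was below 0 for 14 of the 17, and the linear scale gave 9 lower and 2 higher. YUC8 (AT4G28720), an enzyme of auxin synthesis that PIF4 activates, had 11.5, 10.5 and 9.83 TPM at 27°C with mannitol, 5.17, 2.76 and 4.81 TPM at 21°C with mannitol, 17.7, 25.8 and 20.8 TPM at 27°C and 2.58, 3.58 and 2.95 TPM at 21°C. Its level at 27°C with mannitol thus lay between the 27°C libraries and both cool groups, with no overlap. The warm response of YUC8 was 1.17 ± 0.18 with mannitol and 2.47 ± 0.18 without, an interaction of -1.29 ± 0.26 (adjusted p = 0.00862). IAA29 (AT4G32280), an auxin response repressor induced in shade and warmth, had 12.1, 14.4 and 10.6 TPM at 27°C with mannitol, 4.39, 4.73 and 4.31 TPM at 21°C with mannitol, 31.5, 33.1 and 33.4 TPM at 27°C and 5.68, 5.76 and 4.51 TPM at 21°C. Here too the libraries at 27°C with mannitol lay between those at 27°C and both cool groups, and the interaction was -1.14 ± 0.17 (adjusted p = 0.00111).

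Other growth genes had a called warm response without mannitol and none with it. XTH15 (AT4G14130), a xyloglucan-modifying enzyme of the cell wall, had 24.1, 22.9 and 23.1 TPM at 27°C with mannitol, 21.9, 15.8 and 20.4 TPM at 21°C with mannitol, 86.2, 86.7 and 79.6 TPM at 27°C and 19.4, 26.1 and 28.1 TPM at 21°C. The 27°C libraries stood above all 9 others, which lay close together. Its interaction was -1.48 ± 0.18 (adjusted p = 0.000211), with a warm response of 0.27 ± 0.13 (adjusted p = 0.0851) with mannitol and 1.75 ± 0.13 (adjusted p = 9.82e-08) without. IAA19 (AT3G15540), another auxin response repressor, had an interaction of -1.48 ± 0.23 (adjusted p = 0.00127), and SAUR22 (AT5G18050), a small auxin-induced growth gene, had -1.66 ± 0.41 (adjusted p = 0.0283). SAUR22 was near 1 TPM in the cool groups, and its call was lost without replicate 1 at 21°C, replicate 2 at 21°C with mannitol, replicate 2 or 3 at 27°C, or replicate 1 or 2 at 27°C with mannitol, with values from -1.87 to -1.35. Near-identical SAUR copies may share reads, and the sources used here do not say how such reads were handled.

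PIF4 itself (AT2G43010) had 4.85, 4.62 and 5.93 TPM at 27°C with mannitol, 2.25, 1.27 and 1.45 TPM at 21°C with mannitol, 10.7, 9.01 and 10.6 TPM at 27°C and 2.1, 2.08 and 2.43 TPM at 21°C. Every 27°C library was above every library at 27°C with mannitol, and both were above the cool groups. Its interaction was -0.57 ± 0.22 (adjusted p = 0.170) and did not pass, though it did at log2(TPM + 5), with -0.46 (adjusted p = 0.0290), and on the linear scale, with -4.42 TPM (adjusted p = 0.00503). ELF3 (AT2G25930) had 97.5, 106 and 102 TPM at 27°C with mannitol, 67.9, 73.9 and 70.9 TPM at 21°C with mannitol, 83.7, 60.4 and 77.2 TPM at 27°C and 69.1, 61.4 and 66.4 TPM at 21°C. It was highest in the 3 libraries at 27°C with mannitol, and its interaction of 0.36 ± 0.14 (adjusted p = 0.158) did not pass. ELF4 (AT2G40080) had an interaction of -0.24 ± 0.12 (adjusted p = 0.287), which did not pass either. Without replicate 1 at 27°C both passed, ELF3 with 0.46 (adjusted p = 0.0331) and ELF4 with -0.35 (adjusted p = 0.0248).

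The auxin list, which shares YUC8, IAA19, IAA29 and SAUR22 with the warm growth list, had 9 of 34 tested members lower and 0 higher (26.5% called, against 5.12% of all tested genes), with a median of -0.35. GH3.3 (AT2G23170), which joins auxin to amino acids and so removes it, had 13.7, 13.3 and 13.2 TPM at 27°C with mannitol, 19.4, 22.1 and 22 TPM at 21°C with mannitol, 24.9, 26.3 and 21.1 TPM at 27°C and 14.2, 12.6 and 14.6 TPM at 21°C. In the presence of mannitol it fell with warmth, with -0.62 ± 0.10 (adjusted p = 0.000115), and without mannitol it rose with warmth, with 0.76 ± 0.10 (adjusted p = 2.21e-05), giving an interaction of -1.38 ± 0.14 (adjusted p = 5.77e-05). In the ethylene list of 21 genes, 3 were lower and 0 higher (14.3% called, median -0.14). ACS8 (AT4G37770), a synthase of the ethylene precursor ACC, had 2.82, 1.25 and 1.48 TPM at 27°C with mannitol, 0.830, 0.795 and 0.752 TPM at 21°C with mannitol, 11.6, 9.27 and 8.86 TPM at 27°C and 0.716, 0.484 and 0.714 TPM at 21°C. All 27°C libraries were above the other 9, with an interaction of -2.1 ± 0.28 (adjusted p = 0.000401). ACS11 (AT4G08040), of the same enzyme family, had -1.48 ± 0.32 (adjusted p = 0.0149).

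**Figure D2:**
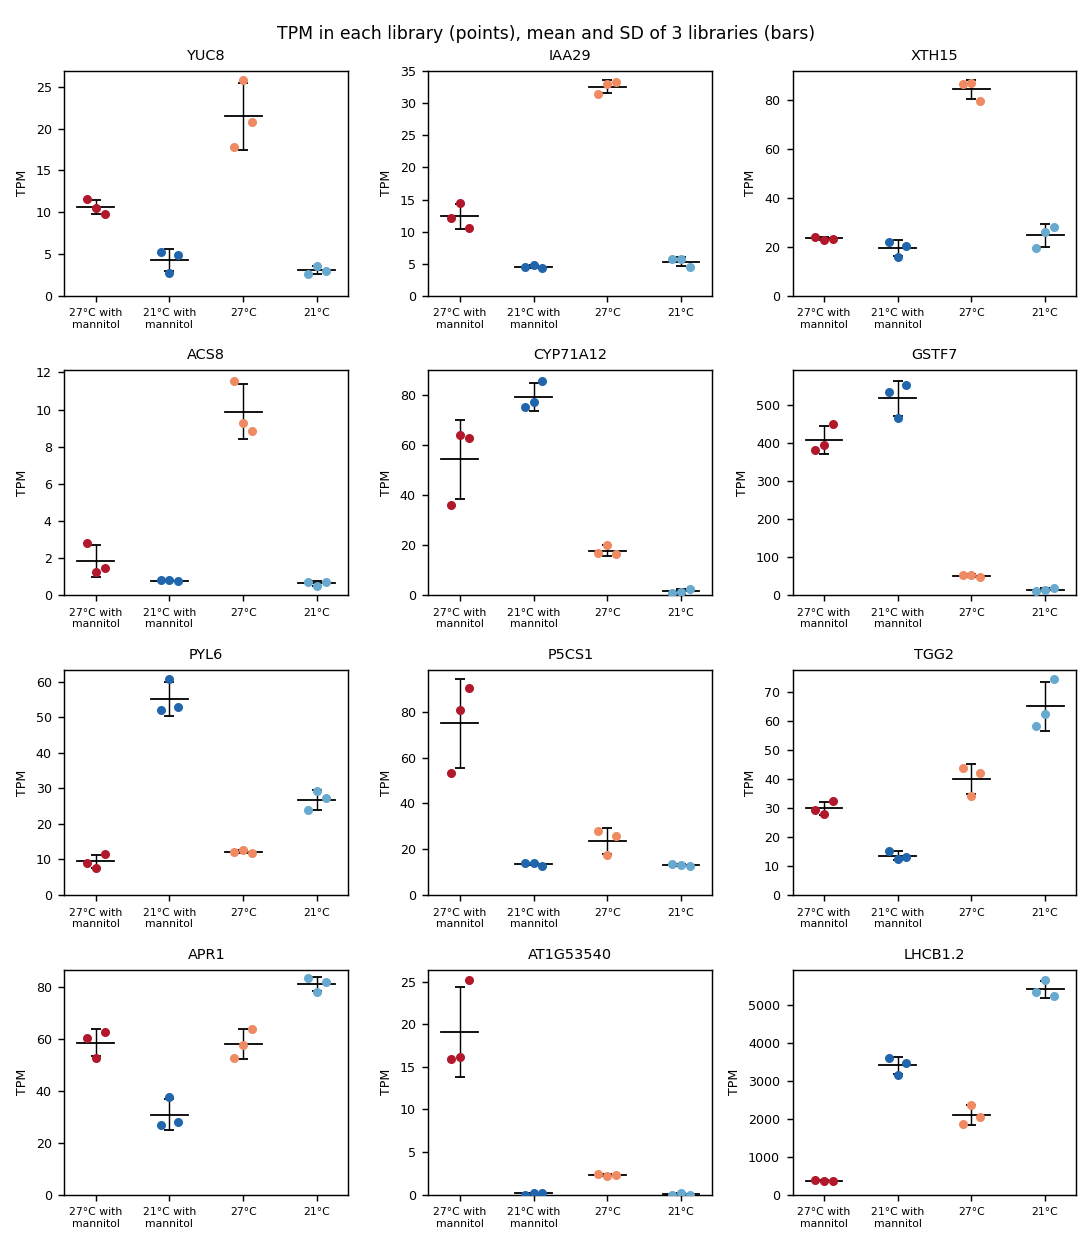
TPM of 12 genes in each library (points), with the mean (long bar) and SD (error bar) of 3 libraries per group; every vertical axis starts at 0. YUC8, IAA29, XTH15 and ACS8 were highest at 27°C, P5CS1 and AT1G53540 at 27°C with mannitol, PYL6, CYP71A12 and GSTF7 at 21°C with mannitol, and TGG2, APR1 and LHCB1.2 at 21°C.

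Cell wall genes split by family. Of 19 tested wall genes 6 were lower and 3 higher (47.4% called, against 5.12% of all tested genes), with a median of -0.01. The 6 lower members were all xyloglucan endotransglucosylases, among them XTH15, which is also in the warm growth list. The 3 higher ones were all expansins, which loosen walls. This split was noted after the values were seen. After rescaling 2 wall genes were higher and 7 lower, and leaving out 1 library gave 2 or 3 higher and 5 to 7 lower. XTH22 (AT5G57560), a touch-induced member, had 28.0, 31.3 and 25.3 TPM at 27°C with mannitol, 25.6, 25.2 and 29.1 TPM at 21°C with mannitol, 45.4, 49.6 and 46.6 TPM at 27°C and 18.6, 17.2 and 14.3 TPM at 21°C. The 27°C libraries were again apart from the rest, with an interaction of -1.38 ± 0.15 (adjusted p = 7.14e-05). XTH33 (AT1G10550) had -2.12 ± 0.31 (adjusted p = 0.00104). Among the expansins EXPA15 (AT2G03090) averaged 53.6 ± 0.537 TPM at 27°C with mannitol, 56.2 ± 7.34 TPM at 21°C with mannitol, 24.2 ± 3.28 TPM at 27°C and 50.1 ± 1.56 TPM at 21°C (SD, n = 3 each), an interaction of 0.97 ± 0.14 (adjusted p = 0.000851). EXPA3 had 0.80 ± 0.10 (adjusted p = 0.000310) and EXPA4 0.36 ± 0.08 (adjusted p = 0.0166). In the list of brassinosteroid and gibberellin genes 3 of 19 were lower and 1 higher (21.1% called, median -0.01). The lower ones were the gibberellin synthesis genes GA20OX1 (AT4G25420), at -1.66 ± 0.40 (adjusted p = 0.0280), and GA20OX2 (AT5G51810), at -0.84 ± 0.20 (adjusted p = 0.0239), and the brassinosteroid synthesis gene BR6OX2 (AT3G30180), at -0.68 ± 0.15 (adjusted p = 0.0140). The higher one was RGA1, a DELLA repressor of gibberellin responses, at 0.44 ± 0.08 (adjusted p = 0.00340). Only 1 lower gene of this list was left without replicate 2 at 21°C with mannitol, replicate 3 at 27°C, or replicate 2 or 3 at 27°C with mannitol. GA20OX1 was scarce in every library, at 0.695, 0.299 and 0.0982 TPM at 27°C with mannitol and 3.16, 2.2 and 2.43 TPM at 27°C, and its value moved to -3.26 with a pseudocount of 0.1.

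In the clock list 3 of 25 tested members were lower (12%, against 2.69% of all tested genes) and 0 higher, with a median of -0.07. LUX (AT3G46640), through which the evening complex binds DNA, had 29.4, 29.4 and 28.4 TPM at 27°C with mannitol, 6.56, 6.37 and 5.59 TPM at 21°C with mannitol, 43.3, 40.7 and 41.9 TPM at 27°C and 6.37, 6.34 and 5.18 TPM at 21°C. Both cool groups overlapped, and each library at 27°C with mannitol was below each library at 27°C. The interaction of LUX was -0.56 ± 0.14 (adjusted p = 0.0273). It kept its sign without any single library, at -0.62 to -0.48, but its adjusted p was 0.0563 to 0.0728 without replicate 3 at 21°C, replicate 1 or 2 at 21°C with mannitol, replicate 3 at 27°C, or any of the 27°C with mannitol replicates. CHE (AT5G08330), a TCP factor that represses the morning clock gene CCA1, had -0.76 ± 0.16 (adjusted p = 0.0144), and AT1G69570, which RefSeq names a Dof-type zinc finger protein, had -1.37 ± 0.31 (adjusted p = 0.0176). The AT1G69570 call was lost without replicate 3 at 21°C with mannitol, at -1.24 (adjusted p = 0.0537).

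The 250 bases before the LUX gene start (RefSeq, TAIR10.1, chr3:17182792-17183041, plus strand) are shown because they hold an evening element, the sequence through which clock proteins act on each other's genes. Capitals mark an evening element (AAAATATCT) 53 bases before the start, a G-box (CACGTG) 193 bases before it that overlaps an ABRE (ACGTGGC or ACGTGTC), and DREs (ACCGAC or GCCGAC) 250 and 82 bases before it, on either strand.
LUX: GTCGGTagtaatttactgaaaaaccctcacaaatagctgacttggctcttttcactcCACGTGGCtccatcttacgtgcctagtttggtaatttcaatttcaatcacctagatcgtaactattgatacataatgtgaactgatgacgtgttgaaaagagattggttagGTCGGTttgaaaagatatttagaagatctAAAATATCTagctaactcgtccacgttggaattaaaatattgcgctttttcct
In windows from 250 bases before to 50 after the start, both strands searched, the evening element was in 4.32% of promoters of genes called higher, 2.42% of those called lower and 3.01% of all tested genes. The G-box was in 10.1%, 7.08% and 8.92% of the same sets, the ABRE in 8.23%, 6.33% and 8.94%, and the DRE in 9.88%, 8.19% and 9.59%. A TCP site (TGGGCC) was in 12.3% of the higher genes and 4.84% of the lower genes, against 18.5% of all tested genes. A telo-box (AAACCCTA) was in 4.53%, 2.42% and 5.44%, and a CAMTA box (ACGCGT or CCGCGT) in 3.91%, 5.59% and 4.59%.

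Iron uptake genes had the lowest median of the 29 lists, -1.26 over 22 tested members, with 6 lower and 0 higher (27.3% called, against 5.12% of all tested genes). FRO2 (AT1G01580), the root surface enzyme that reduces ferric iron, had 22.1, 11.3 and 14.6 TPM at 27°C with mannitol, 56.9, 48.9 and 51.7 TPM at 21°C with mannitol, 103, 78.0 and 107 TPM at 27°C and 18.6, 51.6 and 92.0 TPM at 21°C. IRT1 (AT4G19690), the transporter that carries the reduced iron into the root, had 79.5, 51.0 and 60.2 TPM at 27°C with mannitol, 216, 195 and 213 TPM at 21°C with mannitol, 242, 221 and 257 TPM at 27°C and 68.4, 163 and 247 TPM at 21°C. For both genes the libraries at 27°C with mannitol were below those at 21°C with mannitol and at 27°C, while the 21°C libraries reached from the range of the one to the range of the other. The interaction was -2.76 ± 0.54 (adjusted p = 0.00768) for FRO2 and -2.49 ± 0.43 (adjusted p = 0.00338) for IRT1. CYP82C4 (AT4G31940), which makes an iron-mobilising coumarin, had -2.71 ± 0.61 (adjusted p = 0.0177). The transcription factor that controls this set, FIT, listed by RefSeq as FRU (AT2G28160), averaged 7.56 ± 1.67 TPM at 27°C with mannitol, 30.0 ± 4.47 TPM at 21°C with mannitol, 17.9 ± 1.1 TPM at 27°C and 20.3 ± 8.85 TPM at 21°C (SD, n = 3 each), with an interaction of -1.80 ± 0.35 (adjusted p = 0.00753). BHLH101, a related regulator, had -1.49 ± 0.40 (adjusted p = 0.0443), and NAS1, a synthase of the metal chelator nicotianamine, had -0.90 ± 0.25 (adjusted p = 0.0494). NAS2 (AT5G56080), a second such synthase that is not in the list, had 3.84, 4.38 and 1.44 TPM at 27°C with mannitol, 20.6, 20.7 and 20.4 TPM at 21°C with mannitol, 9.37, 13.2 and 11.6 TPM at 27°C and 3.43, 7.48 and 12.2 TPM at 21°C. Its libraries at 21°C with mannitol were above all others, and its interaction was -3.07 ± 0.46 (adjusted p = 0.00114).

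The 21°C libraries differed widely from each other in these genes. Summed, the 22 iron genes had 1593, 1239 and 1461 TPM at 27°C with mannitol, 1507, 1402 and 1529.9 TPM at 21°C with mannitol, 1522, 1696 and 1488 TPM at 27°C and 806, 1059 and 1353 TPM at 21°C. Root marker levels had the same order among the 21°C libraries. Without PYK10, an abundant beta-glucosidase of endoplasmic reticulum bodies, the 13 other root markers summed to 235, 239 and 249 TPM at 27°C with mannitol, 265, 239 and 249 TPM at 21°C with mannitol, 227, 224 and 227 TPM at 27°C and 178, 210.0 and 235 TPM at 21°C. With PYK10 the sums ranged from 4680.3 to 5049 TPM at 27°C with mannitol, 2949 to 3074.9 TPM at 21°C with mannitol, 2955 to 3169.6 TPM at 27°C and 2480.5 to 2636 TPM at 21°C. None of the 14 was at 0 in every library, and 2 were called higher (PYK10 and GPAT5) and 1 lower (CASP2), 21.4% called against 5.12% of all tested genes. On the linear scale 2 of the 14 were higher and 0 lower, and leaving out 1 library gave 2 higher and 0 or 1 lower. The part of root content in the iron result was not tested. Without replicate 1 at 21°C the interaction of FRO2 was -2.15 (adjusted p = 0.00157) and that of IRT1 -1.97 (adjusted p = 0.000193). The number of iron genes called lower was 12 without replicate 3 at 21°C and 3 without replicate 3 at 27°C with mannitol, and 1 member was called higher without replicate 1 at 21°C and without replicate 2 at 27°C. CYP82C4 lost its call without replicate 3 at 27°C with mannitol, at -2.47 (adjusted p = 0.0544). With limma's robust option FRO2 did not pass (adjusted p = 0.0607) and 2 iron genes did.

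**Figure D3:**
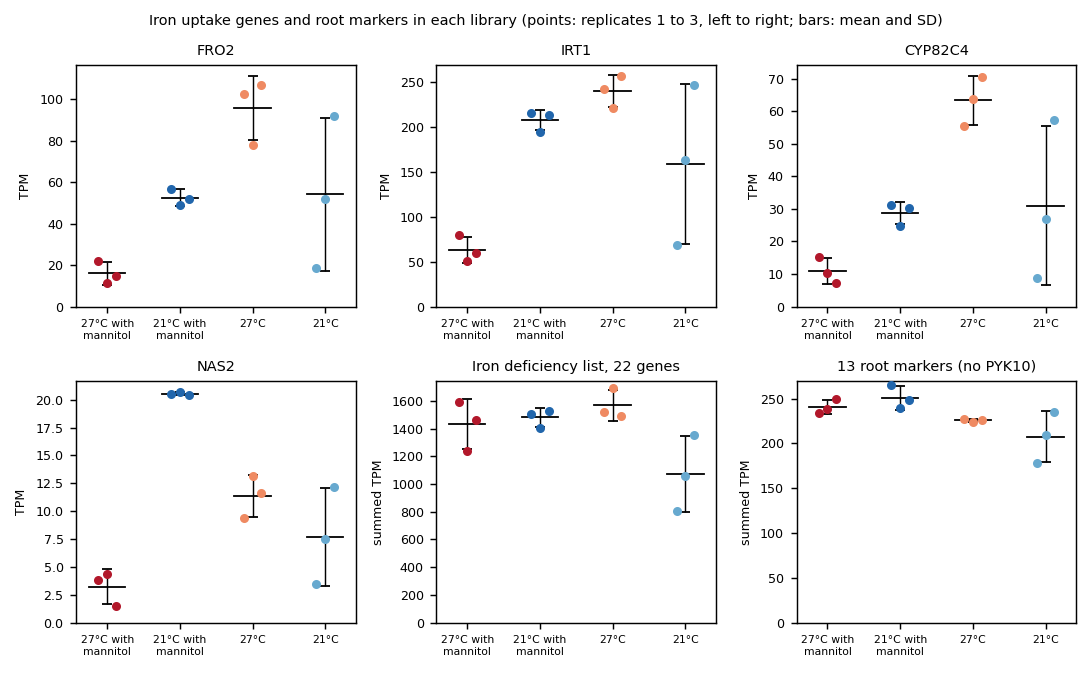
TPM of FRO2, IRT1, CYP82C4 and NAS2, the summed TPM of the 22 iron deficiency genes, and the summed TPM of 13 root markers in each library, drawn from replicate 1 on the left to replicate 3 on the right of each group; bars are the mean and SD. In the 21°C group replicate 1 is the lowest and replicate 3 the highest in all 6 panels.

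Water and nitrate transport genes gave more lower than higher calls. Of 19 aquaporins, the water channels of plasma and vacuole membranes, 8 were lower and 1 higher (47.4% called, against 5.12% of all tested genes), with a median of -0.31. TIP2;3 (AT5G47450), a vacuolar channel of roots, had 21.8, 14.8 and 19.1 TPM at 27°C with mannitol, 54.0, 48.1 and 51.6 TPM at 21°C with mannitol, 28.7, 28.2 and 37.5 TPM at 27°C and 27.6, 38.3 and 42.0 TPM at 21°C. Its level at 27°C with mannitol was below that of each other group, and its interaction was -1.25 ± 0.22 (adjusted p = 0.00382). RD28 (AT2G37180), a plasma membrane channel, had -1.11 ± 0.16 (adjusted p = 0.000804), with a warm response of -0.64 ± 0.11 (adjusted p = 0.000242) with mannitol and 0.47 ± 0.11 (adjusted p = 0.00335) without. PIP1A (AT3G61430) had -0.94 ± 0.15 (adjusted p = 0.00167). The channel called higher was PIP2;5, at 0.66 ± 0.15 (adjusted p = 0.0202), a call that was lost without replicate 2 at 21°C, replicate 3 at 27°C, or replicate 1 or 2 at 27°C with mannitol. In the nitrate list 2 of 14 genes were lower and 0 higher (14.3% called, median -0.12). NRT1.5 (AT1G32450), which loads nitrate into the xylem, had -1.13 ± 0.17 (adjusted p = 0.000995), and NRT1.1 (AT1G12110), the nitrate sensor and transporter, -0.54 ± 0.11 (adjusted p = 0.0118). Without replicate 1 at 27°C this count was 4. The 21°C root marker sums given above were lowest in the same library, replicate 1 at 21°C, in which NRT1.5, TIP2;3, RD28 and PIP1A also had their lowest 21°C value; without it their interactions were -0.98 (adjusted p = 0.000600), -1.08 (adjusted p = 0.00583), -0.97 (adjusted p = 0.000591) and -0.79 (adjusted p = 0.000620).

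Detoxification and indole defence genes held several of the most negative values. CYP71A12 (AT2G30750), a cytochrome P450 on the way from tryptophan to indolic defence compounds, had 36.1, 64.1 and 62.8 TPM at 27°C with mannitol, 75.0, 77.1 and 85.6 TPM at 21°C with mannitol, 17.1, 20.2 and 16.4 TPM at 27°C and 0.702, 1.33 and 2.54 TPM at 21°C. In the presence of mannitol it fell with warmth, with -0.58 ± 0.23 (adjusted p = 0.0456), and without mannitol it rose with warmth, with 2.96 ± 0.23 (adjusted p = 1.80e-07), an interaction of -3.54 ± 0.33 (adjusted p = 3.47e-05). In TPM it was high with mannitol at both temperatures, and the additive sum on the log2 scale, 623 TPM, was far above the 52.6 TPM measured at 27°C with mannitol. Of 15 glutathione transferases 4 were lower and 0 higher (26.7% called, against 5.12% of all tested genes, median -0.12). GSTF7 (AT1G02920) had 380.4, 394 and 449 TPM at 27°C with mannitol, 533, 466 and 553 TPM at 21°C with mannitol, 53.3, 53.2 and 47.5 TPM at 27°C and 11.8, 13.9 and 18.3 TPM at 21°C. The mannitol groups did not overlap each other or the others, and the interaction was -2.1 ± 0.17 (adjusted p = 1.38e-05). GSTF6 (AT1G02930), its close copy on the same chromosome, had 241, 268 and 265 TPM at 27°C with mannitol, 552, 546 and 537 TPM at 21°C with mannitol, 20.9, 27.9 and 21.0 TPM at 27°C and 20.3, 16.4 and 17 TPM at 21°C, an interaction of -1.43 ± 0.14 (adjusted p = 5.32e-05). Its libraries at 27°C with mannitol were below those at 21°C with mannitol and above those without mannitol. GSTF3 (AT2G02930) had -2.21 ± 0.28 (adjusted p = 0.000246) and GSTU12 -1.05 ± 0.22 (adjusted p = 0.0138). Reads shared between GSTF6 and GSTF7 may have been split, so the separate values are uncertain. On the linear scale GSTF7 stayed negative, at -146 TPM (adjusted p = 0.0229), and GSTF3 did not pass, at -11.6 TPM (adjusted p = 0.226).

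The 250 bases before GSTF7 (RefSeq, TAIR10.1, chr1:659981-660230, minus strand) are shown because GSTF7 had called warm responses of opposite sign. Capitals mark W-boxes (TTGACC or TTGACT) starting 152, 63 and 55 bases before the gene, a DRE 66 bases before it that overlaps the middle W-box, and a heat shock element (GAANNTTC) 203 bases before it.
GSTF7: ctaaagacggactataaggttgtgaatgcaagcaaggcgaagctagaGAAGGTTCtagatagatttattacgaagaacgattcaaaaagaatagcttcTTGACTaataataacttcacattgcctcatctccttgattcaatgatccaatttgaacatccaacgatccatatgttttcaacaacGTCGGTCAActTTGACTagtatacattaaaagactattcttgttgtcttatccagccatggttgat
W-boxes, the sites of WRKY factors, were in 31.3% of the promoters of higher genes, 34.1% of lower genes and 32.8% of all tested genes.

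The indole defence list was split. Of 19 tested members 4 were lower and 4 higher (42.1% called, against 5.12% of all tested genes, median 0.07). Besides CYP71A12 the lower ones were CYP81F2 (AT5G57220), at -1.07 ± 0.13 (adjusted p = 0.000159), and the indole glucosinolate methyltransferases IGMT1, at -1.05 ± 0.10 (adjusted p = 3.61e-05), and IGMT2 (AT1G21120), at -1.27 ± 0.30 (adjusted p = 0.0228), all of which modify indole compounds late in the pathway. IGMT1 and IGMT2, like CYP71A12 and CYP71A13, are close copies, so their separate values are uncertain. The IGMT2 call was lost without any 1 of the 21°C with mannitol libraries and without replicate 1 or 3 at 27°C with mannitol. The higher ones were CYP79B2, at 0.75 ± 0.08 (adjusted p = 0.000115), CYP79B3, at 0.64 ± 0.08 (adjusted p = 0.000404), CYP83B1, at 0.43 ± 0.10 (adjusted p = 0.0238), and the regulator MYB34, at 0.89 ± 0.14 (adjusted p = 0.00172), which act early in the pathway or switch it on. CYP79B2 averaged 216 ± 9.31 TPM at 27°C with mannitol, 143 ± 3.75 TPM at 21°C with mannitol, 94.8 ± 0.912 TPM at 27°C and 106 ± 7.29 TPM at 21°C (SD, n = 3 each). IGMT1 averaged 142 ± 3.70 TPM at 27°C with mannitol, 69.2 ± 3.35 TPM at 21°C with mannitol, 76.9 ± 6.30 TPM at 27°C and 17.5 ± 0.405 TPM at 21°C (SD, n = 3 each). It was thus highest under the combined treatment, and by these means its contrast in TPM is above 0, so its direction depends on the scale. On the linear scale 3 members of the list were lower and 5 higher. Members past the 3 with the most extreme values in a list, here and elsewhere, were named after their values were seen.

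Salicylic acid genes gave calls in both directions, for 15% of the synthesis and turnover list and 18.8% of the response list, against 5.12% of all tested genes. In the synthesis and turnover list 1 of 20 was higher and 2 lower (median -0.11), and in the response list 1 of 16 was higher and 2 lower (median -0.14). ICS1 (AT1G74710), the main synthesis enzyme, had 12.6, 11.7 and 11.9 TPM at 27°C with mannitol, 8.80, 8.17 and 8.46 TPM at 21°C with mannitol, 4.42, 5.05 and 5.87 TPM at 27°C and 5.88, 5.23 and 4.03 TPM at 21°C. Each mannitol group was above both groups without it, and the interaction of 0.44 ± 0.19 (adjusted p = 0.209) did not pass, though the linear contrast of 3.51 TPM (adjusted p = 0.0225) did. EDS5 (AT4G39030), which exports the precursor from the chloroplast, had an interaction of 0.65 ± 0.17 (adjusted p = 0.0366). This call was lost without any 1 of the 9 libraries outside the 27°C group, with values from 0.56 to 0.70. UGT76B1 (AT3G11340), which puts glucose on salicylic acid and related signals, had 62.1, 64.2 and 71.3 TPM at 27°C with mannitol, 71.3, 70.6 and 75.7 TPM at 21°C with mannitol, 41.1, 40.8 and 40.4 TPM at 27°C and 17.9, 19.6 and 26.7 TPM at 21°C. The 21°C group stood lowest, and the interaction was -1.06 ± 0.16 (adjusted p = 0.00104). UGT74F2 (AT2G43820), another such enzyme, had -0.45 ± 0.10 (adjusted p = 0.0229), a call lost without replicate 1 at 21°C, replicate 1 or 3 at 21°C with mannitol, replicate 3 at 27°C, or replicate 2 or 3 at 27°C with mannitol. EDS1 (AT3G48090), PAD4 (AT3G52430) and NPR1 (AT1G64280), regulators and a receptor of the pathway, had interactions of 0.25 ± 0.12 (adjusted p = 0.261), -0.08 ± 0.20 (adjusted p = 0.859) and 0.02 ± 0.12 (adjusted p = 0.941), and none passed. The sign of NPR1 turned with rescaling. Without replicate 2 at 27°C the synthesis list had 2 genes higher, and the lower count fell to 1 in the cases given for UGT74F2 other than replicate 3 at 27°C.

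Among response genes PR2 (AT3G57260), a secreted glucanase, had 3.51, 4.40 and 4.66 TPM at 27°C with mannitol, 0.439, 0.946 and 0.664 TPM at 21°C with mannitol, 0, 0 and 0 TPM at 27°C and 0.211, 0 and 0.105 TPM at 21°C. Every library at 27°C with mannitol was above the other 9, with all 27°C libraries listed at 0, and its interaction was 1.77 ± 0.27 (adjusted p = 0.00116); this value depends on the pseudocount, being 3.39 with 0.1 and 0.72 with 5. PR1 (AT2G14610) was not tested: it had 0.191, 0.574 and 0.189 TPM at 27°C with mannitol and was listed at 0 in the 9 other libraries. PR5 (AT1G75040), a thaumatin-like protein, had 13.9, 19.4 and 14.2 TPM at 27°C with mannitol, 40.7, 58.7 and 46.2 TPM at 21°C with mannitol, 2.09, 2.21 and 1.43 TPM at 27°C and 10.6, 9.42 and 9.51 TPM at 21°C. Its interaction of 0.35 ± 0.22 (adjusted p = 0.404) did not pass, and on the linear scale it was negative, at -24.8 TPM (adjusted p = 0.0169), so its direction depends on what additive means. ACD6 (AT4G14400), an ankyrin membrane protein of cell death control, had 13.9, 21.2 and 20.0 TPM at 27°C with mannitol, 83.9, 71.6 and 88.6 TPM at 21°C with mannitol, 10.6, 6.44 and 8.82 TPM at 27°C and 16.5, 17.3 and 17.57 TPM at 21°C. Its libraries at 21°C with mannitol were above all others, with an interaction of -1.17 ± 0.23 (adjusted p = 0.00753), and WRKY18 (AT4G31800), a transcription factor of the response, had -0.86 ± 0.16 (adjusted p = 0.00560). In the pattern immunity list of 21 genes only PUB23 (AT2G35930), a ubiquitin ligase, was called (4.76% of the list, near the 5.12% of all tested genes), at -1.24 ± 0.30 (adjusted p = 0.0280), and it lost the call without 7 of the 12 libraries (replicate 2 at 21°C, replicate 2 or 3 at 21°C with mannitol, replicate 2 or 3 at 27°C, and replicate 1 or 2 at 27°C with mannitol). PUB23 was scarce, with group means from 0.842 TPM at 21°C to 3.49 TPM at 21°C with mannitol. On the linear scale it did not pass, at -2.52 TPM (adjusted p = 0.0641).

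Abscisic acid genes gave calls in both directions. Of 32 tested members 5 were higher and 4 lower (28.1% called, against 5.12% of all tested genes), with a median of 0.30. All 4 lower genes encode receptors of the hormone: PYL6, PYL5 at -0.99 ± 0.13 (adjusted p = 0.000457), PYL4 at -0.70 ± 0.10 (adjusted p = 0.000906) and PYR1 at -0.56 ± 0.14 (adjusted p = 0.0265). PYL6 (AT2G40330) had 9.12, 7.63 and 11.5 TPM at 27°C with mannitol, 52.2, 60.7 and 52.8 TPM at 21°C with mannitol, 12, 12.6 and 11.8 TPM at 27°C and 23.8, 29.3 and 27.4 TPM at 21°C. It was highest at 21°C with mannitol, and no 2 groups overlapped, with an interaction of -1.37 ± 0.17 (adjusted p = 0.000288). The 5 higher genes were P5CS1, HAI1, PP2CA at 0.46 ± 0.12 (adjusted p = 0.0407), RD22 at 0.52 ± 0.12 (adjusted p = 0.0193) and GOLS1 at 0.71 ± 0.18 (adjusted p = 0.0332). P5CS1 (AT2G39800), the enzyme that starts proline synthesis, had 53.4, 81.1 and 90.6 TPM at 27°C with mannitol, 13.8, 13.8 and 12.8 TPM at 21°C with mannitol, 27.8, 17.3 and 25.6 TPM at 27°C and 13.5, 13.2 and 12.6 TPM at 21°C. The cool groups overlapped, and the 3 libraries at 27°C with mannitol were above all others. The interaction was 1.59 ± 0.25 (adjusted p = 0.00149). HAI1 (AT5G59220), a phosphatase that the receptors inhibit, had 5.78, 6.88 and 8.73 TPM at 27°C with mannitol, 0.884, 0.521 and 1.1 TPM at 21°C with mannitol, 2.93, 2.62 and 2.28 TPM at 27°C and 1.17, 0.727 and 0.910 TPM at 21°C. Its libraries at 27°C with mannitol were again above all others, with an interaction of 1.24 ± 0.26 (adjusted p = 0.0115). NCED3 (AT3G14440), which makes the hormone under drought, had 0.50 ± 0.29 (adjusted p = 0.365) and did not pass. The higher count was 3 without replicate 1 at 21°C, replicate 1 or 2 at 21°C with mannitol, or replicate 2 at 27°C with mannitol, and 2 without replicate 3 at 27°C with mannitol. After median-of-ratios rescaling 3 members were higher and 4 lower, and on the linear scale 9 were higher and 5 lower.

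Of 10 cold regulon genes 2 were lower (20%, against 2.69% of all tested genes) and 0 higher (median -0.10): COR47 (AT1G20440), a dehydrin, with -0.74 ± 0.12 (adjusted p = 0.00188), and KIN1 (AT5G15960), with -1.08 ± 0.24 (adjusted p = 0.0153). The KIN1 call was lost without replicate 3 at 21°C with mannitol, at -1.02 (adjusted p = 0.0519). COR413IM1 (AT1G29395), a cold-induced protein of the chloroplast inner membrane outside that list, had 14.3, 19.5 and 19.2 TPM at 27°C with mannitol, 23.0, 18.4 and 17.5 TPM at 21°C with mannitol, 9.42, 11.1 and 9.69 TPM at 27°C and 52.0, 34.1 and 28.2 TPM at 21°C. Both mannitol groups overlapped, the 27°C group was lowest and the 21°C group highest, and the interaction was 1.63 ± 0.26 (adjusted p = 0.00161). None of 15 tested late seed maturation genes passed (limma; 0 with voom on recovered reads, 3 had an unadjusted p below 0.05, and the linear scale gave 2 higher). The nearest was EM1 (AT3G51810), a protein of dry seeds, with 31.2, 44.8 and 63.2 TPM at 27°C with mannitol, 6.22, 0 and 0.626 TPM at 21°C with mannitol, 3.98, 3.74 and 5.06 TPM at 27°C and 0.596, 0.302 and 0 TPM at 21°C and an interaction of 2.29 ± 0.71 (adjusted p = 0.0814). Its libraries at 27°C with mannitol were above the other 9. It passed without replicate 1 at 21°C with mannitol, at 3.12 (adjusted p = 0.000536).

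Genes of the light-harvesting antenna, which feed light energy to the photosystems, were the list with the largest share of calls: 10 of 18 were lower and 0 higher (55.6% called, against 5.12% of all tested genes), with a median of -0.45. LHCB1.2 (AT1G29910) had 390.2, 366 and 346 TPM at 27°C with mannitol, 3593, 3161 and 3472 TPM at 21°C with mannitol, 1853, 2365 and 2055 TPM at 27°C and 5325, 5659.6 and 5234 TPM at 21°C. The 4 groups did not overlap, and the combined treatment gave 367 TPM (back-transformed mean), against the 1311 TPM that the single effects would give on the log2 scale. Its interaction was -1.83 ± 0.11 (adjusted p = 1.09e-06). LHCB1.5 (AT2G34420) had -0.92 ± 0.17 (adjusted p = 0.00594) and LHCB2.3 (AT3G27690) had -0.96 ± 0.23 (adjusted p = 0.0259); the last call was lost without replicate 2 or 3 at 21°C, replicate 3 at 21°C with mannitol, or replicate 1 or 2 at 27°C with mannitol. Summed over the 18 genes the antenna had 18369.9, 18396 and 18188 TPM at 27°C with mannitol, 39341, 34054 and 38109 TPM at 21°C with mannitol, 34672, 37561 and 35046 TPM at 27°C and 52377, 52181 and 51933 TPM at 21°C. On the linear scale 3 antenna genes were higher and 3 lower, and LHCB1.2 had 274 TPM (adjusted p = 0.556), so the result for this list depends on the scale. The 4 green leaf markers summed to 28021, 27145 and 27042 TPM at 27°C with mannitol, 31145, 33686 and 32099.7 TPM at 21°C with mannitol, 38169, 38627 and 37792 TPM at 27°C and 40043, 39368 and 38653 TPM at 21°C; their part in the antenna result was not tested. LHCB1 copies are nearly identical in sequence and their separate values are uncertain.

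Photosystem and carbon fixation genes were lower in 7 of 24 cases and higher in 0 (29.2% called, against 5.12% of all tested genes), with a median of -0.23. The count was 4 without replicate 2 at 21°C, replicate 3 at 21°C with mannitol or replicate 2 at 27°C with mannitol. PSAH2 (AT1G52230), a subunit of photosystem I, had 480.4, 433 and 449 TPM at 27°C with mannitol, 512, 498 and 499.7 TPM at 21°C with mannitol, 692, 709 and 693 TPM at 27°C and 504, 553 and 515 TPM at 21°C, with the 27°C group above the other 3 and an interaction of -0.56 ± 0.08 (adjusted p = 0.000467). PSBQ (AT4G21280), of the oxygen-evolving complex, had -0.41 ± 0.07 (adjusted p = 0.00436). PSAK (AT1G30380), of photosystem I, had -0.42 ± 0.10 (adjusted p = 0.0285), a call lost without 7 libraries, namely replicate 2 or 3 at 21°C, replicate 1 or 3 at 21°C with mannitol, replicate 3 at 27°C and replicate 1 or 2 at 27°C with mannitol. Of the 4 green leaf markers 0 were called by limma and 1 had an unadjusted p below 0.05.

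Most heat shock genes rose with warmth in both settings. In the list of 22 tested members 20 were called higher and 0 lower with warmth in the presence of mannitol, and 18 higher and 1 lower with warmth in its absence. Of all tested genes, 54% were called in either direction with warmth in the presence of mannitol and 44.8% in its absence. The interaction was called higher for 2 and lower for 0 (9.09% called, against 5.12% of all tested genes), with a median of 0.26, and on the linear scale for 7 and 1. The 2 were AT1G53540, which RefSeq names an HSP20-like chaperone, and HSP17.4, a small chaperone of the cytosol. AT1G53540 had 15.9, 16.1 and 25.2 TPM at 27°C with mannitol, 0, 0.183 and 0.193 TPM at 21°C with mannitol, 2.35, 2.21 and 2.34 TPM at 27°C and 0, 0.186 and 0 TPM at 21°C. Each library at 27°C with mannitol was above each library at 27°C, and the cool groups were near 0. The interaction was 2.49 ± 0.26 (adjusted p = 7.07e-05). HSP17.4 (AT3G46230) had 35.8, 32.0 and 57.0 TPM at 27°C with mannitol, 0.690, 0.441 and 0.232 TPM at 21°C with mannitol, 5.89, 9.75 and 8.89 TPM at 27°C and 0, 0.447 and 0 TPM at 21°C. It had the same order of groups, with an interaction of 1.85 ± 0.33 (adjusted p = 0.00401). Because both start near 0, the values rest on the added 1 TPM. With a pseudocount of 0.1 AT1G53540 had 2.45 (adjusted p = 0.0664) and HSP17.4 0.75 (adjusted p = 0.633), while on the linear scale both passed, at 16.7 TPM (adjusted p = 0.00554) and 33.1 TPM (adjusted p = 0.0190). Hsp70b (AT1G16030), a chaperone outside the list, had 19.2, 18.3 and 30.8 TPM at 27°C with mannitol, 4.90, 5.53 and 4.40 TPM at 21°C with mannitol, 7.29, 7.30 and 7.17 TPM at 27°C and 5.02, 4.83 and 4.3 TPM at 21°C. It had an interaction of 1.43 ± 0.23 (adjusted p = 0.00174). HSP70 (AT3G12580), an inducible chaperone, had 158, 159 and 174 TPM at 27°C with mannitol, 18.1, 17.9 and 16.1 TPM at 21°C with mannitol, 85.4, 95.6 and 86.8 TPM at 27°C and 8.72, 6.84 and 7.74 TPM at 21°C; its interaction of -0.20 ± 0.12 (adjusted p = 0.393) did not pass on the log2 scale but was positive on the linear scale, at 65.1 TPM (adjusted p = 0.000374). The heat shock count was 5 higher without replicate 1 at 27°C with mannitol and 4 without replicate 2 at 27°C.

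The 250 bases before both small chaperone genes are shown since they share heat shock elements, the sites of heat shock factors. They come from RefSeq (TAIR10.1), for HSP17.4 from chr3:16984868-16985117, minus strand, and for AT1G53540 from chr1:19980049-19980298, plus strand. Capitals mark heat shock elements starting 99 and 18 bases before HSP17.4 and 53 bases before AT1G53540, TCP sites 189 and 150 bases before them, a G-box 216 bases and an ABRE 51 bases before HSP17.4, and a DRE 95 bases before AT1G53540.
HSP17.4: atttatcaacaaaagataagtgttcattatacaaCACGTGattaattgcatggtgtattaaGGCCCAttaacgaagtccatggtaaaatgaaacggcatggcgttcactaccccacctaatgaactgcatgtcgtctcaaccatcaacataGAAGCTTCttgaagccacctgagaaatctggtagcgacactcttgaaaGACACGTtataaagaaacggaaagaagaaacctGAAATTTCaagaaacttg
AT1G53540: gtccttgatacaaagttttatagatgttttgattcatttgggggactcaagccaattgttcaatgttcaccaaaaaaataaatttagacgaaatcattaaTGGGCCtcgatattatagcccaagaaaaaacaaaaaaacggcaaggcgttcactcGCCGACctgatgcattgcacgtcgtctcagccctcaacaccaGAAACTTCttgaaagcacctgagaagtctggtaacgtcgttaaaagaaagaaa
The heat shock element was in 45.8% of 24 promoters of the heat shock list, in 12.3% of promoters of genes called higher, 14.5% of those called lower and 11.3% of all tested genes.

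**Figure D4:**
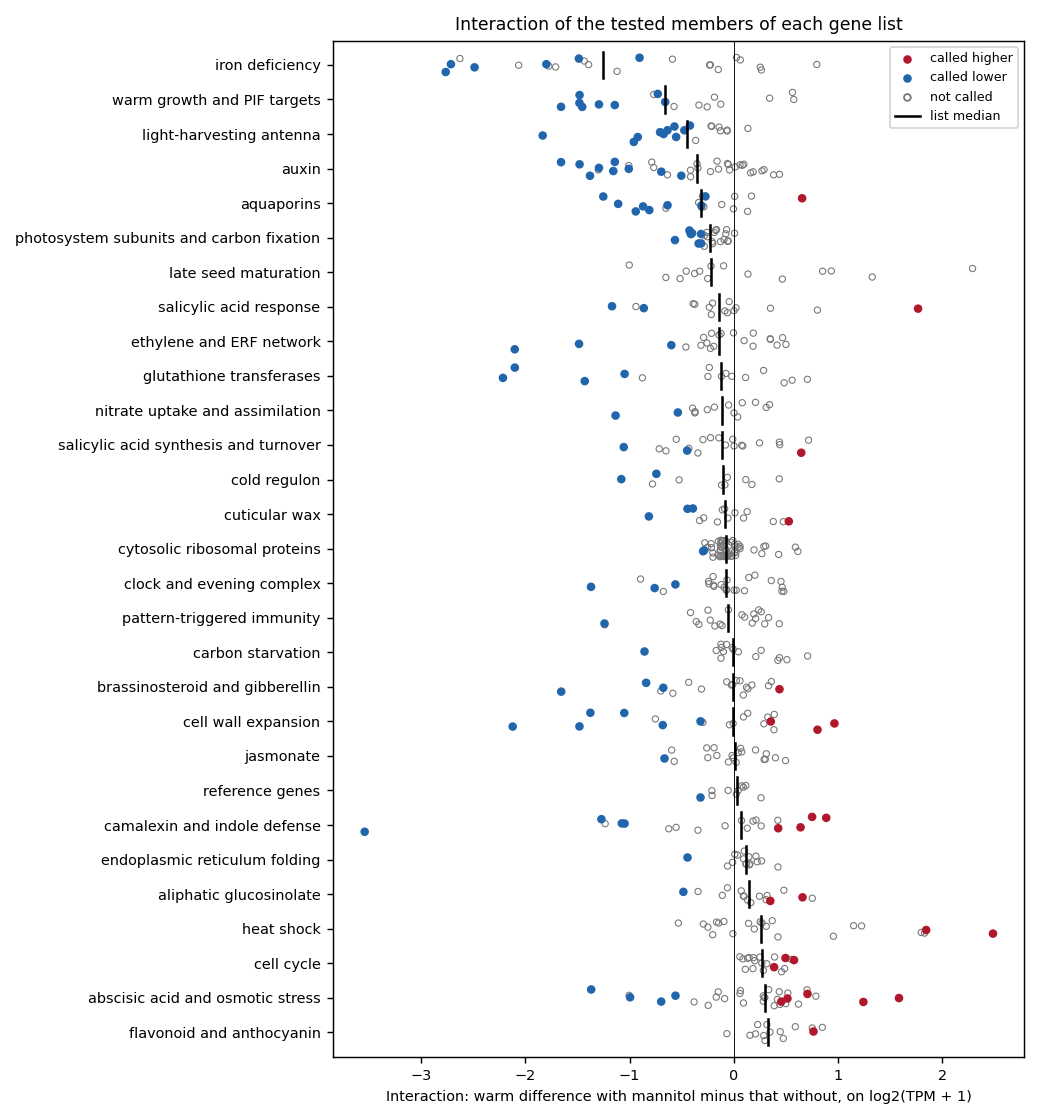
Interaction on the log2(TPM + 1) scale of each tested member of 29 gene lists (points), ordered by the list median (bar). Iron deficiency (median -1.26) and warm growth (median -0.66) lie farthest to the left and hold no gene called higher, and the abscisic acid list holds calls on both sides.

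Genes outside the lists completed both ends of the ranking. TGG2 (AT5G25980), a myrosinase that splits glucosinolates, had 29.3, 27.7 and 32.4 TPM at 27°C with mannitol, 15.2, 12.3 and 13.1 TPM at 21°C with mannitol, 43.6, 34.0 and 42.0 TPM at 27°C and 58.2, 62.4 and 74.4 TPM at 21°C. In the presence of mannitol it rose with warmth, with 1.08 ± 0.11 (adjusted p = 2.63e-06), and without mannitol it fell with warmth, with -0.69 ± 0.11 (adjusted p = 0.000193). No 2 groups overlapped, and the interaction of TGG2 was 1.77 ± 0.16 (adjusted p = 3.35e-05). Its relative TGG1 was called higher, at 0.37 ± 0.09 (adjusted p = 0.0196), as the only 1 of the 4 guard cell markers (25%, against 5.12% of all tested genes). The interactions of the 4 markers ran from -0.43 to 0.37. After rescaling and on the linear scale 0 of them were called, and leaving out 1 library gave 0 or 1 higher. APR1 (AT4G04610), which reduces sulfate for cysteine synthesis, had 60.4, 52.5 and 62.6 TPM at 27°C with mannitol, 26.7, 37.5 and 28.1 TPM at 21°C with mannitol, 52.5, 57.6 and 63.8 TPM at 27°C and 83.3, 78.1 and 81.8 TPM at 21°C. The 27°C groups with and without mannitol overlapped, while at 21°C mannitol lowered it, with -1.38 ± 0.11 (adjusted p = 4.3e-07), and the interaction was 1.4 ± 0.16 (adjusted p = 0.000128). MEE3 (AT2G21650), which RefSeq lists as a homeodomain-like protein, had 0.145, 0.145 and 0 TPM at 27°C with mannitol, 1.60, 1.11 and 0.586 TPM at 21°C with mannitol, 0.298, 0.140 and 0 TPM at 27°C and 10.3, 10.3 and 9.86 TPM at 21°C. Its 21°C libraries were above the other 9, with an interaction of 2.38 ± 0.28 (adjusted p = 0.000144). The single effects of MEE3 added on the log2 scale would give -0.79 TPM, a level that cannot occur. Its interaction could therefore only be positive, although its mean was lowest at 27°C with mannitol, at 0.0969 TPM. AT4G36430, a peroxidase by its RefSeq name, had 1.35 ± 0.32 (adjusted p = 0.0246), AT5G10210, by its RefSeq name a nitric oxide synthase-interacting protein, had 1.47 ± 0.35 (adjusted p = 0.0255), and the methyltransferase AT5G38020 had 1.5 ± 0.40 (adjusted p = 0.0423). Each of these 3 lost its call without some library: AT4G36430 without replicate 3 at 21°C, replicate 3 at 27°C or replicate 2 or 3 at 27°C with mannitol, AT5G10210 without replicate 2 or 3 at 21°C, replicate 2 or 3 at 21°C with mannitol, or replicate 2 or 3 at 27°C with mannitol, and AT5G38020 without 8 of 12 libraries, at 1.11 to 1.74.

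At the lower end, AT1G52120, a mannose-binding lectin by its RefSeq name, had 0.876, 0.798 and 0.394 TPM at 27°C with mannitol, 23.4, 14 and 29.0 TPM at 21°C with mannitol, 2.70, 0.921 and 1.38 TPM at 27°C and 0, 1.24 and 1.45 TPM at 21°C. Its libraries at 21°C with mannitol were above all others, and its interaction was -4.27 ± 0.48 (adjusted p = 0.000110). AT2G30670, an NAD(P)-binding protein listed at 0 in the 27°C libraries, had the same group highest with -2.39 ± 0.40 (adjusted p = 0.00269), but did not pass with a pseudocount of 0.1, at -1.70 (adjusted p = 0.189). AT2G37030, of the SAUR family, had 6.57, 6.83 and 4.0 TPM at 27°C with mannitol, 3.29, 6.78 and 5.35 TPM at 21°C with mannitol, 26.7, 26.5 and 23.1 TPM at 27°C and 1.94, 3.44 and 3.87 TPM at 21°C. Its 27°C libraries were above all others, with an interaction of -2.56 ± 0.33 (adjusted p = 0.000312). AT1G26380, a FAD-binding berberine-type enzyme, had -2.24 ± 0.22 (adjusted p = 4.82e-05). It was below 1 TPM at 21°C, at 0.271, 0.275 and 0.720 TPM, and did not pass on the linear scale, at -11.5 TPM (adjusted p = 0.126). PP2-A8 (AT5G45070), a phloem protein, had 19.7, 21.5 and 18.4 TPM at 27°C with mannitol, 45.4, 46.7 and 44.7 TPM at 21°C with mannitol, 24.9, 29.0 and 29.4 TPM at 27°C and 5.15, 12.3 and 17.76 TPM at 21°C. It was highest at 21°C with mannitol and lowest at 21°C, with an interaction of -2.48 ± 0.37 (adjusted p = 0.00116). Of the 3 phloem markers only SUC2, a sucrose carrier, was called, lower at -0.48 ± 0.11 (adjusted p = 0.0196), and the others had -0.15 and 0.04. On the linear scale 0 of the 3 were called, and leaving out 1 library gave 0 or 1 lower. The summed level of the 3 markers ranged from 140.3 to 144 TPM at 27°C with mannitol, 174 to 185 TPM at 21°C with mannitol, 173 to 211 TPM at 27°C and 179 to 200.3 TPM at 21°C. Their part in the PP2-A8 result was not tested. The defensin-like AT1G13609 had -2.57 ± 0.69 (adjusted p = 0.0446), from 21°C libraries at 5.95, 18.1 and 44.8 TPM, and its call was lost in 9 of 12 cases of leaving out 1 library, at -3.23 to -1.87.

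In all, 132 genes had called warm responses of opposite sign with and without mannitol, and 106 of them had a mean of at least 10 TPM in some group. AT2G25510, for which RefSeq gives no named function, had 118, 139.6 and 146 TPM at 27°C with mannitol, 442, 399 and 505 TPM at 21°C with mannitol, 45.2, 42.8 and 46.1 TPM at 27°C and 29.5, 28.5 and 40.6 TPM at 21°C. It was lower at 27°C with mannitol than at 21°C with mannitol, with -1.73 ± 0.12 (adjusted p = 5.17e-08), and higher at 27°C than at 21°C, with 0.45 ± 0.12 (adjusted p = 0.00690), giving an interaction of -2.18 ± 0.17 (adjusted p = 1.22e-05). AT3G07720, a kelch repeat protein, had an interaction of -2.07 ± 0.31 (adjusted p = 0.00112). AT5G23115 had the highest interaction of the genes tested, 5.18 ± 1.24 (adjusted p = 0.0257), but was listed at 0 in 6 of 12 libraries and lost its call without replicate 1 at 21°C, any 1 library at 21°C with mannitol, replicate 3 at 27°C, or replicate 1 or 3 at 27°C with mannitol, at 4.24 to 6.35. Its single effects added on the log2 scale would give -0.86 TPM, a level that cannot occur, so its interaction could only be positive.

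**Figure D5:**
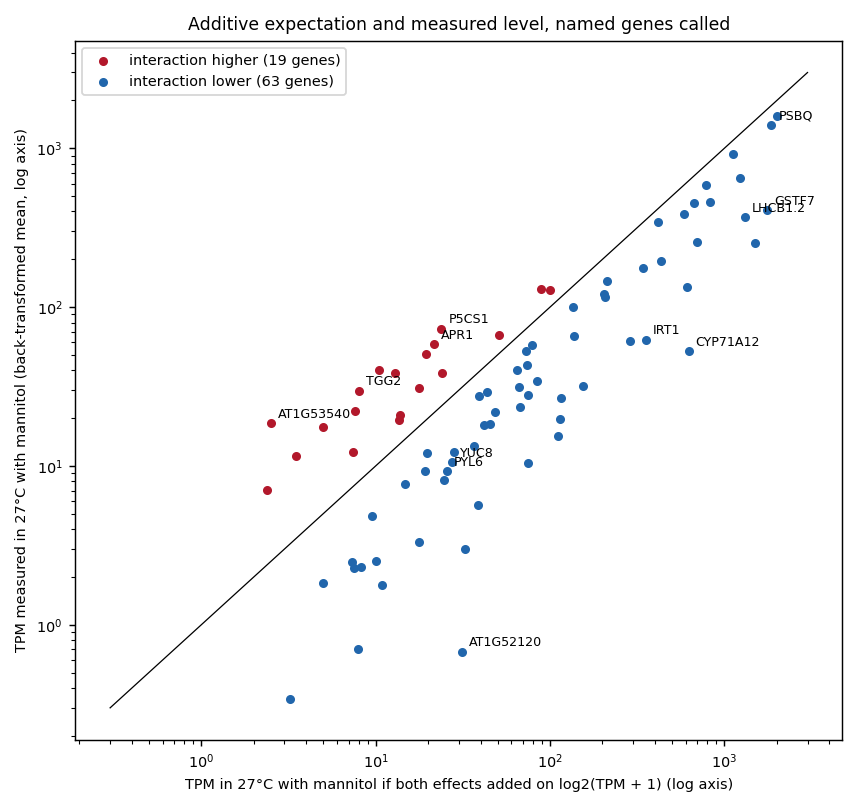
Level measured at 27°C with mannitol (vertical axis, back-transformed mean TPM) against the level that both single effects would give if they added on the log2(TPM + 1) scale (horizontal axis, TPM), for 82 of the 85 named genes with a called interaction whose additive value was at least 1 TPM; both axes are logarithmic. The 19 genes called higher lie above the line of equality and the 63 called lower below it, CYP71A12 at 52.6 against 623 TPM.

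The share called in either direction was 26.7% in the cuticular wax list and 18.8% in the aliphatic glucosinolate list, against 5.12% of all tested genes. It was near that share, at 4.76% to 7.14%, in the pattern immunity, jasmonate, carbon starvation, endoplasmic reticulum and flavonoid lists. Leaving out 1 library also gave 1 gene higher, where the full data gave 0, in the ethylene and glutathione transferase lists (without replicate 2 at 27°C or replicate 1 at 27°C with mannitol), the pattern immunity and clock lists (without replicate 1 at 27°C), the late seed list (without replicate 1 at 21°C with mannitol or replicate 1 at 27°C), the ribosomal list (without replicate 2 at 21°C or replicate 1 or 2 at 27°C) and the endoplasmic reticulum list (without replicate 1 at 21°C). Of 15 cuticular wax genes 3 were lower and 1 higher (median -0.09): KCS1 (AT1G01120), which lengthens fatty acids, had -0.81 ± 0.09 (adjusted p = 0.000133), LACS1 (AT2G47240), which activates them, -0.44 ± 0.09 (adjusted p = 0.0107), and CER2 -0.39 ± 0.10 (adjusted p = 0.0416), while the wax exporter ABCG12 (AT1G51500) had 0.53 ± 0.11 (adjusted p = 0.00941). A second wax gene was called higher without replicate 3 at 27°C. Among 16 aliphatic glucosinolate genes 2 were higher and 1 lower (median 0.15), namely SOT17 (AT1G18590) with 0.66 ± 0.18 (adjusted p = 0.0488), IIL1 (AT4G13430) with 0.35 ± 0.07 (adjusted p = 0.0116) and CYP83A1 (AT4G13770) with -0.48 ± 0.13 (adjusted p = 0.0446). After rescaling 0 of the 16 were called higher. SOT17 lost its call without any library but replicate 1 at 21°C and replicate 3 at 27°C with mannitol, and CYP83A1 lost it without 8 libraries and had the opposite sign on the linear scale, at 17.3 TPM (adjusted p = 0.266). Of 14 flavonoid genes only FLS1 (AT5G08640), which makes flavonols, was called, at 0.76 ± 0.14 (adjusted p = 0.00487). Of 20 jasmonate genes only AOC2 (AT3G25770), an early synthesis enzyme, was called, at -0.66 ± 0.15 (adjusted p = 0.0177); it was not without replicate 2 at 21°C with mannitol or replicate 3 at 27°C with mannitol. Of 16 carbon starvation genes only DIN10 (AT5G20250), which RefSeq names a raffinose synthase, was called, at -0.86 ± 0.12 (adjusted p = 0.000878). Of 16 genes of protein folding in the endoplasmic reticulum only CRT3 (AT1G08450), a calreticulin, was called, at -0.45 ± 0.10 (adjusted p = 0.0160).

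Cell cycle genes had 3 of 19 members higher and 0 lower (15.8% called, against 5.12% of all tested genes, median 0.27), all small: MCM2 (AT1G44900) with 0.58 ± 0.15 (adjusted p = 0.0385) and MCM4 (AT2G16440) with 0.50 ± 0.12 (adjusted p = 0.0303), parts of the helicase that unwinds DNA for replication, and the cyclin CYCD3;1 (AT4G34160) with 0.39 ± 0.10 (adjusted p = 0.0323). With rescaling none of the 3 passed (adjusted p = 0.0557, 0.0603 and 0.113). The count was 6 without replicate 1 at 27°C and 0 without replicate 2 at 21°C, replicate 1 or 3 at 21°C with mannitol, or replicate 1 at 27°C with mannitol, and 1 without replicate 3 at 21°C, replicate 2 at 21°C with mannitol, replicate 3 at 27°C or replicate 2 at 27°C with mannitol. Ribosomal proteins picked by symbol had 2 of 56 lower and 0 higher (median -0.08), 3.57% called and so below the 5.12% of all tested genes. Both, RPL12-C (AT3G27850) at -0.29 ± 0.07 (adjusted p = 0.0325) and RPL27 (AT5G40950) at -0.28 ± 0.08 (adjusted p = 0.0490), are known as proteins of the chloroplast ribosome. Neither held without each library in turn: RPL12-C was lost without 7 of the 12 and RPL27 without 11. Among 10 reference genes UBQ10 (AT4G05320), often used to normalise, was called, with 1632, 1606 and 1563 TPM at 27°C with mannitol, 1353, 1354 and 1419 TPM at 21°C with mannitol, 1224, 1341 and 1292 TPM at 27°C and 854, 895 and 898 TPM at 21°C and an interaction of -0.32 ± 0.07 (adjusted p = 0.0171). It was the only 1 of the 10 called (10%, against 5.12% of all tested genes, list median 0.03). UBQ10 was not called without replicate 3 at 21°C with mannitol or replicate 3 at 27°C with mannitol. On the linear scale it did not pass either, at -178 TPM (adjusted p = 0.195).

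Between scales, 805 of the 1024 genes were also called in the same direction on the linear TPM scale and 3 were called in the opposite direction. The linear scale called 683 genes that the log2 scale did not.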

How the data were processed

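RNA was sequenced from 12 seedling libraries, 3 per group, and the authors deposited 1 table of TPM per gene, of which all 12 library columns were used. The submitters' processing notes list fastp 0.20.1, HISAT2, DESeq2 1.26.0 and TAIR10, with no role for each; the sources used here do not give the counting tool or its treatment of strand and of shared reads. Whole reads were recovered from the TPM steps for 21760 of 21760 genes above 0 in at least 6 libraries (tolerance 0.01 reads), which gave the depths. The value log2(TPM + 1) was fitted with limma 3.58.1 (R 4.3.3, trend) as 4 group means, after keeping genes with at least 1 TPM in at least 3 libraries. The interaction was tested two-sided, with Benjamini-Hochberg adjustment over 20005 genes and calls at an adjusted p below 0.05. A fold on this scale understates the change of low genes. The fit was tested on simulated data. Named genes are the 12 highest and 12 lowest calls and the 8 largest with opposite warm responses (group mean of at least 10 TPM), up to 3 calls per list (the smallest p where none was called), and genes tied to the title; other list members were named after their values were seen. Members and lists were chosen with earlier results of these data known. Alternatives covered scaling, pseudocount, filter, variance model, linear scale, replicate block and leaving out each library. Voom on recovered reads (985 genes called), with and without rescaling, and the linear scale after rescaling were added after seeing the data. The result for 1 gene is not reported here.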

Additional observations from a re-analysis of the deposited data

Results flagged for a closer look

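The warm response differed between seedlings with and without mannitol, by the interaction term, for 1024 genes. Groups of 3 libraries were not tested for single libraries far from the others.

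For 8 genes with at least 10 TPM in some group both warm responses were called, in opposite directions, and the interaction was among the largest. CYP71A12 had an interaction of -3.54, with warm responses of -0.58 ± 0.23 with mannitol and 2.96 ± 0.23 without. FRO2 had -2.76, with -1.70 ± 0.38 and 1.06 ± 0.38, and CYP82C4 had -2.71, with -1.36 ± 0.43 and 1.35 ± 0.43. PP2-A8 had -2.48, with -1.16 ± 0.26 and 1.31 ± 0.26. AT2G25510 had -2.18, with -1.73 ± 0.12 and 0.45 ± 0.12, and GSTF7 had -2.1, with -0.34 ± 0.12 and 1.76 ± 0.12. AT3G07720 had -2.07, with -1.42 ± 0.22 and 0.65 ± 0.22, from 27.0, 25.5 and 27.6 TPM at 27°C with mannitol, 71.6, 81.5 and 66.8 TPM at 21°C with mannitol, 75.8, 77.9 and 81.1 TPM at 27°C and 29.6, 53.0 and 76.9 TPM at 21°C. AT5G23115 had 5.18, with 2.34 ± 0.88 and -2.84 ± 0.88, from 5.94, 0 and 17.63 TPM at 27°C with mannitol, 0, 0 and 0 TPM at 21°C with mannitol, 0, 5.73 and 0 TPM at 27°C and 28.5, 5.78 and 11.4 TPM at 21°C. In FRO2, CYP82C4, PP2-A8 and AT3G07720 the 21°C libraries spread widely, with replicate 1 lowest and replicate 3 highest, as in the summed root markers; this was not tested as a cause.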

How the results depend on the processing

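The total of 1024 called genes was 847 to 1491 under the alternatives above that keep all libraries and were not added later, and leaving out 1 library gave 659 to 1768 in all, 295 to 1013 higher and 359 to 755 lower. Genes called higher numbered 314 with median-of-ratios rescaling, 932 on the linear scale and 260 with voom after rescaling, which called 859 lower. Among the genes named by rule the sign turned, with linear values relative to the gene's mean TPM, for CYP83A1 (0.221 on the linear scale, 0.298 after rescaling), LHCB1.2 (0.0972 and 0.214), PR5 (-1.30, -1.38, and -0.253 at log2(TPM + 5)) and HSP70 (0.935, 0.696 and 0.0307). PAD4 ranged from -0.173 to 0.0481 when 1 library was left out, positive without 27°C with mannitol replicate 1. NPR1 had -0.0650 after rescaling, -0.0501 on the rescaled linear scale, -0.0282 with voom, -0.118 with voom after rescaling, and -0.0637 to 0.0723 when 1 library was left out, negative without replicate 2 of the 21°C, 27°C or 27°C with mannitol group. The cause was not tested. No label ties samples of the same number to each other. Their deviations correlated at -0.076 to 0.128, and the replicate block called 959 genes; AT1G13609, AT5G38020, EDS5, SOT17, MCM2 and RPL12-C lost their calls under it (adjusted p = 0.0524 to 0.0648). HSP17.4 and AT1G53540 did not pass with voom, at 0.76 (adjusted p = 0.809) and 2.34 (adjusted p = 0.299). Genes near 1 TPM rest on few reads, so their values move with the pseudocount.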
